A study of Rattus norvegicus with 4 samples.

Results

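Astrocytes are recognised by a small group of mRNAs for glial intermediate filaments and for proteins that few other brain cells make. The 8 genes described here are of that kind, Gfap, Vim, Nes, S100b, Aldh1l1, Sox9, Fabp7 and Gpr37l1. They were found on the arrays by gene name or by a RefSeq transcript accession, and all 8 had a probe, 10 probes of 41012 in all. These probes made up 28 of 43379 spots, since those of Gfap and S100b were printed 10 times each. Aldh1l1 is listed under its older name Fthfd and was matched by accession.

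The samples were primary astrocytes of Wistar rat pups (P1), with or without hippocampal neurons of E18 mouse embryos plated on them. The astrocytes were grown and plated in medium with 10% serum. Neurons were then added in a supplemented Neurobasal medium for which the study lists no serum. Astrocytes alone were kept under similar conditions. CC is the whole co-culture. In CC-CJ the neurons of such a co-culture had been rinsed off by cold jet, that is, by ice-cold buffer pipetted over the well. AA-CJ is RNA of astrocytes that grew without neurons and got the same cold jet. The Cy3 channel held CC-CJ throughout, next to Cy5-labelled AA-CJ on 2 arrays and Cy5-labelled CC on the other two. As no dyes were swapped, dye and condition of an array cannot be told apart, while in CC versus AA-CJ (Cy5 in either case) a dye effect common to the 4 arrays drops out. Each array was a biological replicate made from several independent samples per the series description, neurons and astrocytes were of different species, and how the rat probes read mouse mRNA was not tested. Whether CC-CJ on the CC arrays came from other cultures than CC-CJ on the AA-CJ arrays is not stated in the sources used here. The CC-CJ values of the 4 arrays may thus not be independent. In such bulk RNA, fewer cells of a type and less RNA per cell cannot be told apart.

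Gfap, vimentin (Vim) and nestin (Nes) form the intermediate filaments of astroglia. Immature astrocytes hold mainly vimentin and nestin, whereas Gfap marks mature and reactive astrocytes. The study also scored the purity of its cultured astrocytes by staining for Gfap and S100b. S100b is a calcium-binding protein, Aldh1l1 an enzyme of folate metabolism, Sox9 a transcription factor needed for the glial fate, and Gpr37l1 an orphan receptor on the astrocyte surface. Fabp7 (brain lipid-binding protein) carries fatty acids and is typical of radial glia and immature astrocytes.

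Each of the 10 probes was well above background in all 8 channels, and none was saturated, so the mRNAs of these astrocyte markers were present in all 3 kinds of RNA. Fabp7 was 1.33-fold higher in CC-CJ compared to AA-CJ. Gpr37l1 was 1.48-fold higher in CC-CJ compared to CC. These were the only 2 values of the 8 genes in 3 comparisons that passed an adjusted p of 0.05 in limma with Benjamini-Hochberg adjustment over 21361 genes, and both depend on the normalization, as given below. Gfap, Vim, Nes, S100b, Aldh1l1 and Sox9 passed in none, and the 95% interval of each of the 8 genes lay within 1 log2 unit of 0 in every comparison.

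Since Fabp7 and Gpr37l1 carry these values, their promoters are shown here, as RefSeq gives them for the rat build GRCr8. Each holds 250 bases before the start site and 50 after it, 5′ to 3′. The Fabp7 sequence is the forward strand of chr20:37669356-37669655 and that of Gpr37l1 the reverse strand of chr13:49157155-49157454. Capitals mark matches on either strand to the CCAAT box and to the GC box, whose letters are GGGCGG.
Fabp7: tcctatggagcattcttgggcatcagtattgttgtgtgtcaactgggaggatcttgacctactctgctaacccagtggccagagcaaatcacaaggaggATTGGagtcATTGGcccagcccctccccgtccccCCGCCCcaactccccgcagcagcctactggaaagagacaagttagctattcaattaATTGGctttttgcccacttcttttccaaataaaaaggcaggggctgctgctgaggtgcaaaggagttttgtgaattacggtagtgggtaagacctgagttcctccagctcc
Gpr37l1: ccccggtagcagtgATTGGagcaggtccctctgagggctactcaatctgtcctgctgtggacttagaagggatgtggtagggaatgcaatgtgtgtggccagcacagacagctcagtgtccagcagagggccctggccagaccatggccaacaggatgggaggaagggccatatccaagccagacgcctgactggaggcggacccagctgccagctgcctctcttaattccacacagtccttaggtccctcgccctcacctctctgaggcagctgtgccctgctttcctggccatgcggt

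The Fabp7 window held 3 matches to the CCAAT box and 1 to the GC box, and that of Gpr37l1 held 1 match to the CCAAT box. Of 27457 rat promoters of the same length, 37.7% held the CCAAT box and 34.9% the GC box. The TATA box with the letters TATAAA was in 14.3% of promoters and in neither window. The core bound by the Notch effector RBPJ, searched as GTGGGAA, was in 6.2% of promoters and likewise in neither window. No arrays of factor binding were made here, and the letters are given as a description only. RefSeq promoters were found for 7 of the 8 genes, all but Sox9.

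The levels of each probe are given as log2 of the normalized intensity, and they are compared only within a probe. The probe of Fabp7 lies at 36815975 to 36816034 of chromosome 20 (rn4) and had levels of 15.13 and 15.22 in AA-CJ. In CC-CJ it was at 15.56 and 15.62 on the arrays shared with AA-CJ, and at 15.52 and 15.49 on those shared with CC. CC itself gave 15.64 and 15.57. Both AA-CJ values were below all 6 values of RNA from co-culture, and CC-CJ and CC overlapped. How many of all probes had groups apart in this way was not counted, so separation of levels is given as a description only.

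**Figure D1:**
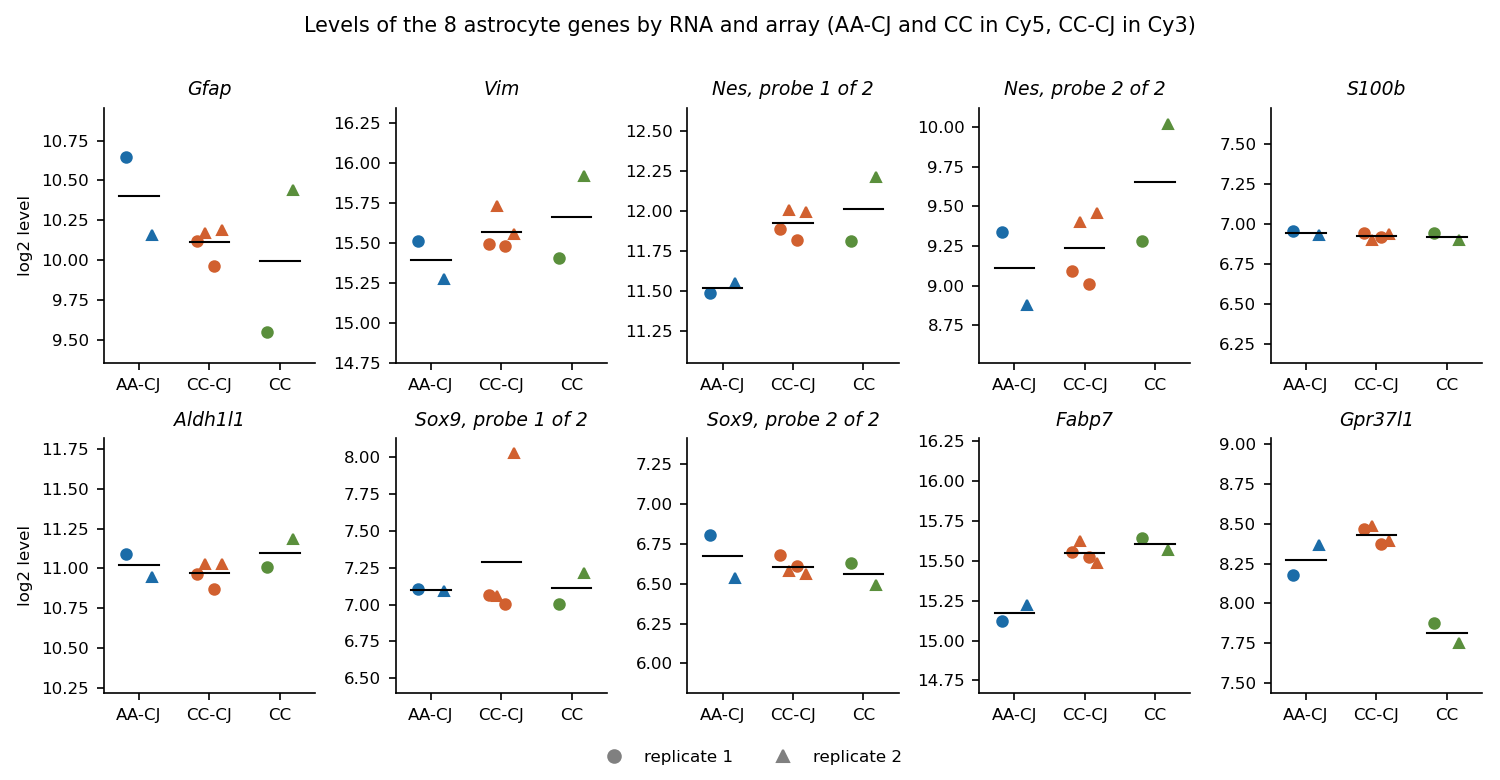
Level of each of the 10 probes (y axis, log2 of normalized intensity, own range per panel) in AA-CJ (n = 2 channels), CC-CJ (n = 4 channels, not shown to be separate cultures) and CC (n = 2 channels), with circles for replicate 1, triangles for replicate 2 and a line at the group mean. Fabp7 was lowest in AA-CJ, Gpr37l1 was lowest in CC, and 1 probe of Sox9 stood apart in 1 CC-CJ sample at 8.03.

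Gpr37l1 (chromosome 13, 48121351 to 48121410) had levels of 7.88 and 7.75 in CC. AA-CJ was at 8.18 and 8.36. CC-CJ was at 8.46 and 8.48 on the AA-CJ arrays, and at 8.38 and 8.39 on the CC arrays. The groups did not overlap, with CC lowest, AA-CJ next and CC-CJ highest, although the gap between the highest AA-CJ value and the lowest of CC-CJ was smaller than the spread within either group. It was the only one of the 8 genes with all 3 groups apart, but the share of all probes with such groups was not counted. CC-CJ was in Cy3 and the others in Cy5, so for its place as the highest, dye and condition cannot be told apart.

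For Gfap (chromosome 10, 92060835 to 92060894) the replicates of AA-CJ were at 10.65 and 10.16, and those of CC at 9.55 and 10.44. CC-CJ ranged from 9.96 to 10.19 over its 4 values. The level in each of the Cy5 groups thus spanned that of CC-CJ or overlapped it, and the range of CC, 0.892, was wider than any difference between group means. Vim (chromosome 17, 87851390 to 87851449) was at 15.51 and 15.27 in AA-CJ, at 15.48 to 15.73 in CC-CJ, and at 15.41 and 15.92 in CC, so that all groups overlapped.

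Nes was read by a pair of probes on chromosome 2, from 180060869 to 180060928 and from 180060663 to 180060722. At the first probe AA-CJ was at 11.49 and 11.55, below CC-CJ (11.82 to 12.01) and CC (11.81 and 12.22). At the second, AA-CJ was at 9.34 and 8.88, CC-CJ at 9.01 to 9.46, and CC at 9.28 and 10.02. The second probe thus showed overlapping groups where the first had AA-CJ apart from the others.

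S100b (chromosome 20, 12791899 to 12791958) varied least, from 6.90 to 6.95 over all 8 channels. Aldh1l1 ranged from 10.87 to 11.19. Sox9 was read by a pair of probes on chromosome 10, the first from 102394224 to 102394283 and the second from 102393822 to 102393881. The second probe ranged from 6.49 to 6.81. The first gave between 7.00 and 7.22 in 7 channels and 8.03 in the other, CC-CJ of replicate 2 against CC, where the second probe gave 6.56. The lowest level well above background was 5.96 to 6.24 per channel, so that S100b and Sox9 lay near the limit of measurement, where the offset added in background correction makes ratios smaller.

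The first question was how RNA of astrocytes that had grown with neurons differed from that of astrocytes grown alone. M is log2 of CC-CJ over the other RNA of the array, so that positive M values mean more in CC-CJ. Here 1 of the 8 genes passed, a higher one, next to 3.1% of all genes tested (1.94% higher and 1.16% lower in CC-CJ). The median M of the 8 genes was 0.09, with 4 above and 4 below 0, and that of all genes was -0.02. Fabp7 had M values of 0.43 and 0.40 on the 2 arrays. The mean was 0.42, with a standard error of 0.079, a 95% interval of 0.23 to 0.60 and an adjusted p of 0.0472 from limma. Only 6.47% of genes had a larger difference in either direction.

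The Fabp7 value lay close to the threshold. Its adjusted p from limma was 0.188 without replicate 1 and 0.122 without replicate 2, with M values that hardly moved. Over the alternatives with an adjusted p it ranged from 4.65e-05 to 0.188, and Fabp7 passed in 12 of 19, in 1 of them with the opposite sign. In that one, with each array centred on its median in place of loess, M of Fabp7 turned to -1.35 (adjusted p = 4.65e-05 from limma), where the median of all genes in CC-CJ versus AA-CJ was -0.485. Under this centring 6 of the 8 genes were called, all lower in CC-CJ, next to 13234 of all 21361 genes, 12525 of them lower. In CC versus AA-CJ, where the dye is the same, Fabp7 stayed above 0 under every alternative run, some of which change only the estimate of the spread.

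Among the filament genes, Nes had M values of 0.08 and 0.49 and a mean of 0.28 (adjusted p = 0.233 from limma). Taken alone, its first probe had a mean of 0.43 (adjusted p = 0.0582 over probes in limma), with M values of 0.40 and 0.46, and its second probe 0.14 (adjusted p = 0.70), with -0.25 and 0.52. Vim had M values of -0.02 and 0.46, and Gfap of -0.52 and 0.01. On replicate 2 Vim and Nes were thus higher in CC-CJ and Gfap was level. On replicate 1 Gfap was lower, Vim was near 0, and the probes of Nes went opposite ways. The means of Vim and Gfap, 0.22 and -0.26, had adjusted p-values of 0.432 and 0.454 in limma. S100b, Aldh1l1 and Sox9 had means of -0.02, -0.02 and -0.04, and the widest of their 95% intervals, that of Sox9, ran from -0.32 to 0.24. Gpr37l1 was at 0.29 and 0.12, with a 95% interval of its mean from -0.01 to 0.42 (adjusted p = 0.239 from limma).

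**Figure D2:**
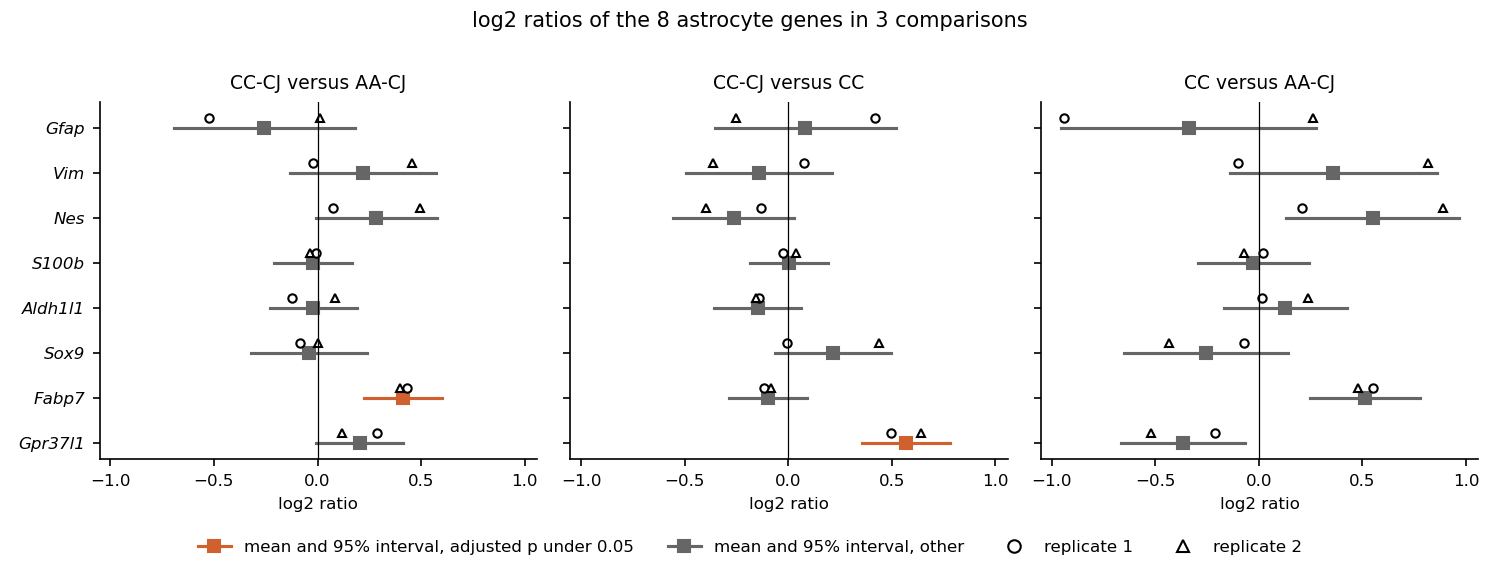
log2 ratio (x axis) of the 8 astrocyte genes (y axis) in CC-CJ versus AA-CJ, CC-CJ versus CC and CC versus AA-CJ, with open circles and triangles for replicates 1 and 2, squares for the mean and bars for its 95% interval from limma. Orange marks an adjusted p under 0.05 and holds for Fabp7 in the first panel and Gpr37l1 in the second, both of which turn below 0 when arrays are centred on their median in place of loess (-1.35 and -0.23).

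The second question was what the cold jet removed from the co-culture. In CC-CJ versus CC, 1 of the 8 genes passed, next to 2.36% of all genes tested. Of all genes, 483 (2.26%) were lower after cold jet and 21 (0.0983%) were higher, Gpr37l1 among the latter. The median M of the 8 genes was -0.05, and that of all genes -0.02. Gpr37l1 had M values of 0.50 and 0.64. The mean was 0.57, with a standard error of 0.089, a 95% interval of 0.36 to 0.78 and an adjusted p of 0.026 from limma, and 2.41% of genes differed more.

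Without CC replicate 1 the adjusted p of Gpr37l1 in limma was 0.0543, and without CC replicate 2 it was 0.307. It passed in 13 of 19 alternatives. Median centring moved its M to -0.23 (adjusted p = 0.07 from limma), where the median of all genes was at -0.59, so that Gpr37l1 stayed above that median.

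The other astrocyte markers did not pass in this comparison. Fabp7 had M values of -0.12 and -0.08 (adjusted p = 0.564 from limma), with a 95% interval of -0.29 to 0.09, and Aldh1l1 of -0.14 and -0.16. Nes, with -0.13 and -0.40, was lower on both arrays (adjusted p = 0.34). Gfap and Vim changed sign between the arrays, with 0.42 and -0.25 for Gfap and 0.08 and -0.36 for Vim. Sox9 was at -0.01 and 0.44. The second of these rests on the single high spot of its first probe, since without that probe the mean of Sox9 was 0.02 in place of 0.22. S100b had a mean of 0.005 and a 95% interval of -0.18 to 0.19.

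**Figure D3:**
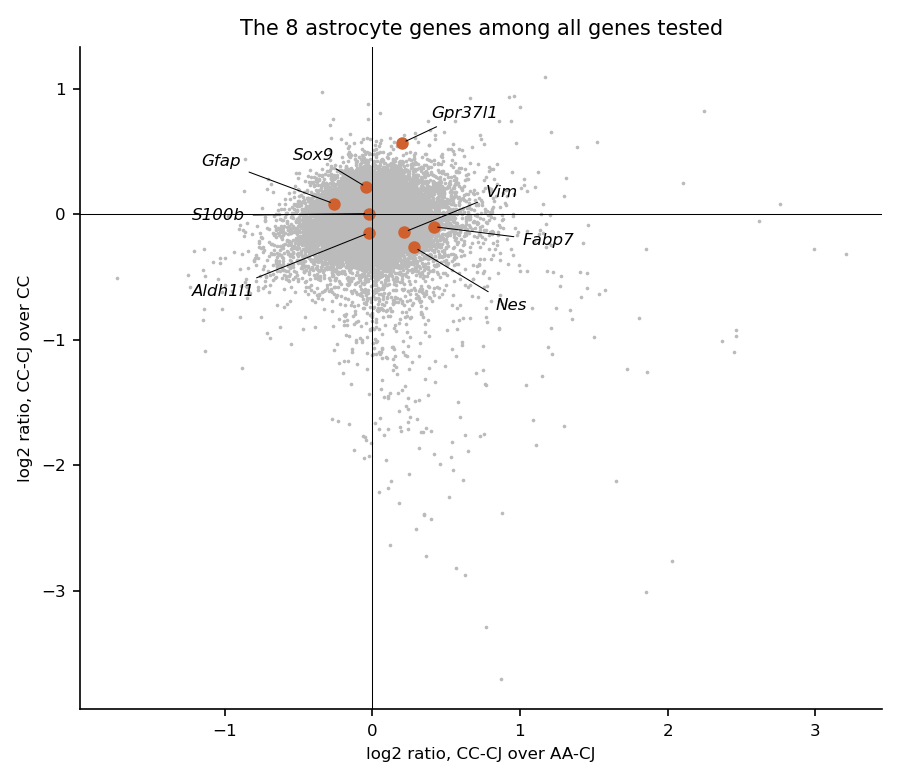
M of all 21361 genes tested in CC-CJ versus AA-CJ (x axis, log2) against CC-CJ versus CC (y axis, log2), grey, with the 8 astrocyte genes in orange. The 8 genes lay between -0.26 and 0.42 on the x axis and between -0.26 and 0.57 on the y axis, while the y axis reached down to -3.70 for Dcx.

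The whole co-culture was then compared with astrocytes alone, through the difference between the 2 kinds of array. None of the 8 genes passed, next to 2.66% of all genes tested (2.58% higher and 0.0796% lower in CC), and 3 had an unadjusted p under 0.05, next to 3797 of 21361 genes. These were Fabp7, Nes and Gpr37l1. Fabp7 was higher in CC by 0.55 and 0.48 when the arrays were taken by replicate number, with a mean of 0.51 and a 95% interval of 0.25 to 0.78 (adjusted p = 0.0757 from limma). Nes was higher by 0.21 and 0.89 (adjusted p = 0.178). Gpr37l1 was lower in CC, with differences of -0.21 and -0.52, a mean of -0.365 and a 95% interval of -0.67 to -0.07 (adjusted p = 0.204).

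These 3 genes had the same sign by either pair of arrays and in all alternatives run, 18 for Fabp7 and Gpr37l1 and 17 for Nes. Some of these alternatives change only the estimate of the spread and leave the difference as it was. For Gfap the pairs gave -0.94 and 0.26, and for Vim -0.10 and 0.82, so that the pairs differed by more than the means of -0.34 and 0.36. Aldh1l1 was at 0.13, S100b at -0.03 and Sox9 at -0.26, with adjusted p-values of 0.636, 0.929 and 0.473 in limma. The comparisons share samples, so that the values of a gene in them are not independent of each other.

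The arrays allow the spread between spots to be set beside that between arrays. The 10 Gfap spots of an array had SDs of 0.0232 to 0.0588 log2 units. The arrays themselves differed in Gfap by 0.534 in CC-CJ versus AA-CJ and by 0.668 in CC-CJ versus CC, and no spot of 1 array fell within the range of the other array of its kind. The gap between the replicates of Gfap was thus larger than the spread between spots. The S100b spots, which were dimmer, had SDs of 0.0943 to 0.114 and overlapped on all arrays. Over the 195 probes printed 10 times, the median SD was 0.0567 to 0.0685 per array. Repeat spots read the same labelled RNA and are no replicates of the culture.

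**Figure D4:**
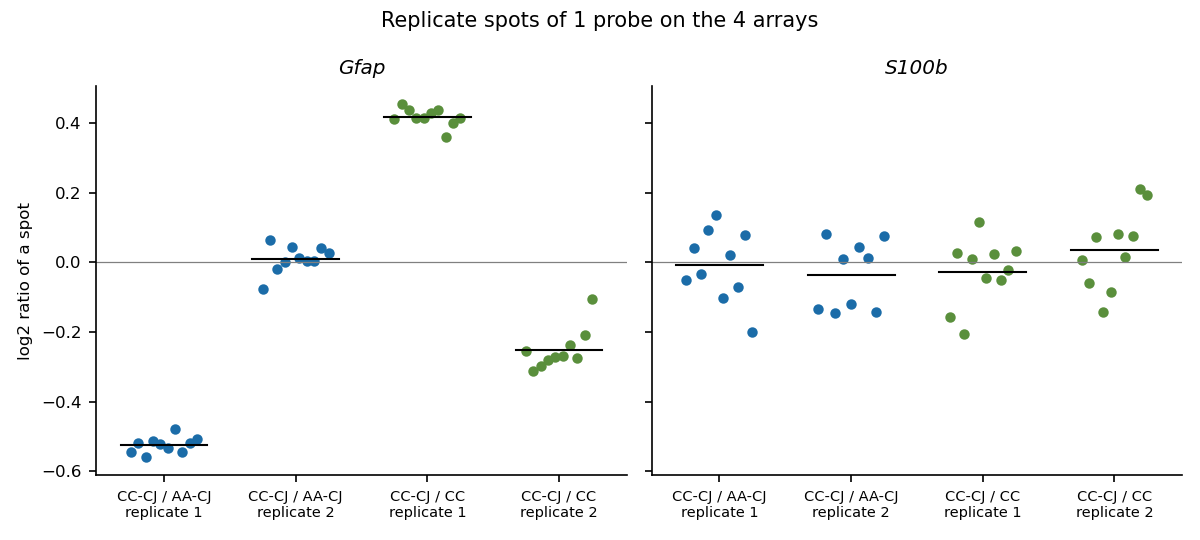
log2 ratio of each spot (y axis) of the Gfap probe and the S100b probe on the 4 arrays (x axis), blue for CC-CJ over AA-CJ and green for CC-CJ over CC, with a line at the array's mean. Gfap spots lay close together on an array (SD 0.0232 to 0.0588) while the arrays of a kind lay 0.534 and 0.668 apart, and S100b spots overlapped on all arrays.

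The named genes whose M values over the 4 arrays lay nearest to those of Fabp7, by Euclidean distance among 8408 genes with a symbol, were Capza2 (distance 0.0648), which caps actin filaments, Ntrk2 (0.0781), the receptor of the neurotrophin BDNF, and the crystallin gene Crygn (0.11). For Gpr37l1 the nearest were farther away, Carhsp1 at 0.226, Cyp4f4 at 0.256 and Nav2 at 0.259. A distance over 4 arrays describes these values only.

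Other genes of glial filaments and astrocyte identity were described by list. Of 10 further intermediate filament genes, 1 passed as higher in CC-CJ versus AA-CJ and none as lower, with a median M of 0.00211. The gene was Prph (peripherin, a filament of peripheral neurons), with M values of 1.53 and 1.37 (adjusted p = 0.00146 from limma). In CC-CJ compared with CC, 2 of the 10 were lower, both of them neuronal filaments, and the median was -0.13. Nefl (neurofilament light) had M values of -0.57 and -1.19, and Ina (internexin) of -0.82 and -0.75. Prph and Ina were also higher in CC than in AA-CJ, by 1.92 and 0.79. Prph passed with any array left out, whereas Nefl and Ina did not pass without CC replicate 2 (adjusted p of 0.20 and 0.0532 in limma), nor did Ina in CC versus AA-CJ without AA-CJ replicate 2 or either CC replicate (0.0732 to 0.0833). With a background offset of 10, Nefl in CC-CJ versus CC and Ina in CC versus AA-CJ did not pass (0.0505 and 0.0584). None of 6 filament linkers, chaperones and modifiers passed in any comparison.

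Of 26 other astrocyte identity genes, 4 passed as higher in CC-CJ versus AA-CJ and none as lower, with a median M of -0.000366. Apoe, the main lipid carrier secreted by astrocytes, had M values of 0.78 and 1.03 (adjusted p = 0.00956 from limma). Sparcl1 (hevin), a secreted synapse-promoting protein, was at 0.65 and 0.90, and Chrdl1, a secreted BMP antagonist, at 0.47 and 0.69. Aqp4, the water channel of astrocyte endfeet, was the other of the 4, with a mean of 0.51, and is named after its value was seen. Median centring turned these 4 below 0, to -0.99, -0.74, -0.77 and -0.069, of which the last alone was above the median of all genes. Of the 4, Apoe passed with any array left out, Sparcl1 did not without AA-CJ replicate 2 (adjusted p = 0.0516 in limma), and Chrdl1 and Aqp4 did not pass with either AA-CJ array left out (up to 0.14 and 0.15). Chrdl1 and Aqp4 did not pass with a background offset of 10 either (0.0861 and 0.0599), nor did Apoe in CC versus AA-CJ (0.0854). None of the 26 passed in CC-CJ compared with CC, where the median was 0.01, and only Apoe passed in CC compared with AA-CJ, higher by 0.83, but not without AA-CJ replicate 2 or either CC replicate (adjusted p of up to 0.0731 in limma). Of 13 astroglial transcription factors none passed in any comparison.

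Relatives of the 8 genes in the S100, Sox, Aldh1l, Fabp and Gpr37 families were looked at as well. Of 10 such genes, 2 passed as higher and 1 as lower in CC-CJ versus AA-CJ, with a median of 0.03. Aldh1l2, the mitochondrial counterpart of Aldh1l1, was not well above background in AA-CJ and was at least 1.53-fold higher in CC-CJ (adjusted p = 0.023 from limma). It entered the test only through RNA of co-culture, where it was high, so that this p-value sets it against signal near background. S100a4 had a mean M of 0.55, which median centring turned to -0.81, and S100a13 of -0.50. Sox10, the relative of Sox9 in the oligodendrocyte lineage, was lower after cold jet, at M values of -0.68 and -1.56. No fatty acid-binding relative of Fabp7 on the list passed. Without AA-CJ replicate 1 none of the 3 relatives passed in CC-CJ versus AA-CJ (adjusted p of 0.115 for Aldh1l2, 0.0935 for S100a4 and 0.169 for S100a13 in limma), S100a4 and S100a13 did not without AA-CJ replicate 2 (0.105 and 0.0679), and Sox10 did not without CC replicate 2 (0.0769). With a background offset of 10, S100a4 and S100a13 did not pass (0.0799 and 0.0931).

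Among 18 genes known from reactive astrocytes, 3 passed as higher and 1 as lower in CC-CJ versus AA-CJ, with a median M of 0.16. Tm4sf1 was higher by 2.10, and Serpina3n and Cp, both acute phase proteins, had means of 0.82 and 0.57, which turned to -0.72 and -0.40 with median centring. Lcn2, an iron-siderophore carrier made by reactive astrocytes, was lower, with M values of -0.85 and -0.88. For Lcn2 this direction is opposite to that in the text of the study. In CC compared with AA-CJ, Tm4sf1 was higher by 1.85 and Lcn2 had a difference of -1.05. Tm4sf1 passed with any array left out. Without AA-CJ replicate 2, Serpina3n, Cp and Lcn2 did not pass in CC-CJ versus AA-CJ (adjusted p of 0.138, 0.0535 and 0.0614 in limma), nor did Cp and Lcn2 without AA-CJ replicate 1 (0.119 and 0.0935), and Lcn2 did not pass in CC versus AA-CJ without either AA-CJ array or CC replicate 2 (0.0582 to 0.0672). With a background offset of 10, Serpina3n, Cp and Lcn2 did not pass in CC-CJ versus AA-CJ (0.084, 0.0628 and 0.0529), nor did Lcn2 in CC versus AA-CJ (0.0607). None of the 18 passed in CC-CJ compared with CC.

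**Figure D5:**
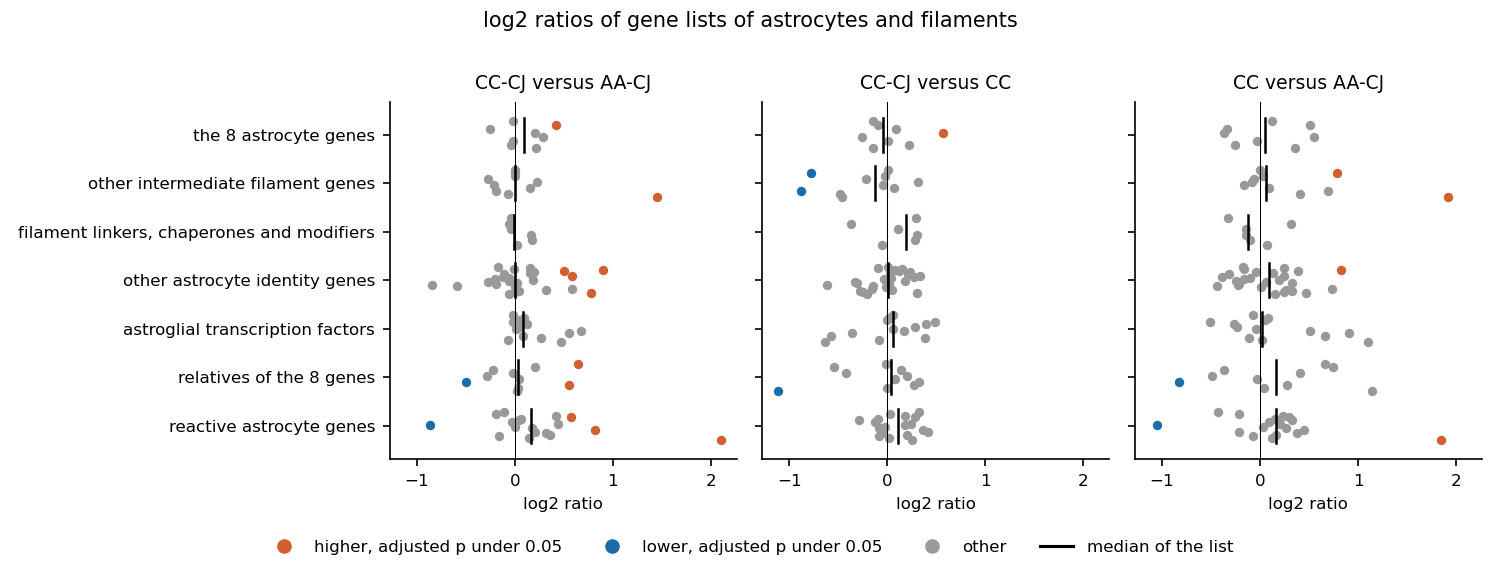
log2 ratio (x axis) of each gene of 7 lists (y axis) in the 3 comparisons, orange for higher and blue for lower at an adjusted p under 0.05 in limma, grey for the rest, with a black line at the list's median. Medians lay between -0.13 and 0.19, and median centring of arrays in place of loess turned the higher calls of Fabp7, Apoe, Sparcl1, Chrdl1, Aqp4, S100a4, Serpina3n and Cp in the first panel and of Gpr37l1 in the second below 0.

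Markers of other cells moved between the RNAs. In CC-CJ compared with CC, 8 of 11 neuron markers tested were lower, with a median M of -2.21, and 5 of 7 microglia markers were lower. The summed intensity of the neuron markers was 20160 to 21150 in CC, 8051 to 8472 in CC-CJ and 8483 to 8965 in AA-CJ. Most of the sum in AA-CJ and CC-CJ was the signal of 1 gene, Stmn2 (stathmin-2, a neuronal microtubule regulator, named after its level was seen), at 7549 to 8017 in AA-CJ and 6090 to 6612 in CC-CJ, with a mean M of -0.00094 in CC-CJ versus CC. Without it the other 10 markers summed to 933.8 to 948.1 in AA-CJ, 1721 to 2227 in CC-CJ and 13730 to 15330 in CC. Against AA-CJ, 5 of the 11 neuron markers and 2 of the 7 microglia markers were higher in CC-CJ, and none was lower. The largest of these differences was that of the neuron marker Gap43, with a mean M of 2.03. Snap25, Dcx and Elavl4, among the neuron markers, were not well above background in AA-CJ, and neither were Aif1, Itgam, Cx3cr1 and C1qa among those of microglia. Snap25 and Aif1 were not well above background in CC-CJ either, and entered the test only through CC, where they were high. Itgam and Cx3cr1 were below the filter and were not tested. The summed microglia markers were 873.3 to 982 in AA-CJ, 1154 to 1422 in CC-CJ and 2151 to 2186 in CC. Of 9 oligodendrocyte lineage markers only Mag passed, lower in CC-CJ than in CC and higher in CC than in AA-CJ. The 5 fibroblast markers summed to 58580 to 61470 in AA-CJ, 55960 to 59680 in CC-CJ and 64710 to 66850 in CC. Sums are not compared between lists, as levels are compared only within a probe. Of the 5, Dcn and Col1a2 were lower after cold jet, and Dcn was higher in CC than in AA-CJ. Without CC replicate 2, Mag, Dcn and Col1a2 did not pass in CC-CJ versus CC (adjusted p of 0.0794, 0.0637 and 0.356 in limma), nor did Col1a2 with a background offset of 10 (0.0871). In CC versus AA-CJ, Mag did not pass without AA-CJ replicate 2 or CC replicate 2 (0.0552 and 0.0823), and Dcn did not pass with any 1 array left out (0.0632 to 0.174) or with the offset of 10 (0.109). None of the 2 endothelial markers tested passed. The part of such cells in the values of Fabp7, Gpr37l1 and Nes was not tested.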

How the data were processed

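RNA was compared on 4 two-colour whole rat genome arrays of 1 slide, scanned together. The authors deposited spot intensities from Agilent Feature Extraction 9.5.1.1 on a linear scale, with its log10 ratio of Cy5 over Cy3, and a table of processed values. Set against the scanner values, these deposited values were found to be log2 Cy5/Cy3 as normalized by the authors, who name OLIN and OSLIN (slopes of 0.927 to 1.22, correlations across spots of 0.93 to 0.973, column medians of -0.0247 to 0.00847). How this table was centred is not given in the sources used here.

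Using limma 3.58.1 (R 4.3.3), background was corrected on mean signals with normexp (offset 50), followed by loess within arrays (span 0.3). Levels were taken per channel after loess and Aquantile. Control spots and 121 to 179 outlier-marked spots per array were left out, 1 of them a spot of S100b. Between 50.1% and 62.6% of probes were well above background per channel. A probe was kept where all arrays of 1 RNA group or more had it well above background, which held for 24863 of 41012. Spots were averaged per probe and probes per gene. A coefficient per kind of array was fitted by lmFit with 2 residual degrees of freedom, a prior of 4.71 was added by eBayes, and p-values were adjusted by Benjamini-Hochberg over 21361 genes. Precision is limited by having 2 arrays in each comparison. The summed markers are sums of linear levels.

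The 8 genes and all lists were chosen with earlier results of these data known. Beside the 8 genes, the text names at most 3 genes per list, direction and comparison, with the largest change among those that passed and moved one way on both arrays, and the 3 nearest genes to each gene that passed. Outside this rule it names Aqp4, Stmn2 and some markers given as not well above background (Snap25, Elavl4, Aif1, Itgam and Cx3cr1). Not every gene that the rule picks is named. The fit was tested on simulated data, drawn as independent normal values without dye effects or shared samples. Such data do not test the normalization, on which the calls depend. Positions are those of rn4 in the scanner files. Which exon or UTR a probe lies in, and the probe sequences, were not analysed here.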

Additional observations from a re-analysis of the deposited data

Results flagged for a closer look

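The level of Sox9 at its first probe in CC-CJ of replicate 2 against CC, 8.03 on the log2 scale, lay far from the other CC-CJ samples, which were between 7.00 and 7.07. Its gap to the nearest of them made up 0.938 of the range of the 4 samples, above Dixon's 95% limit for that number. Of the 10 probes tested in this way it was the only one past the limit, and chance takes about 1 in 20 groups of independent values past it. Whether the 4 CC-CJ samples were independent is not stated in the sources used here. The probe has a single spot per array, that spot carried no outlier mark, and the second Sox9 probe was at 6.56 in the same channel.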

How the results depend on the processing

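Over the 8 genes in 3 comparisons, 361 of 400 values under alternatives chosen at the start and 45 of 45 under those added after seeing the data kept their sign and their side of the threshold. Of the others, 14 changed sign without passing in either setting, 12 lost the call, 6 gained it and 7 reversed, 2 of which had been called. Many of these values could not change sign. The replicate block, the trended robust prior and the rule of 2 SD change the test but leave M as it was. Leaving out an array of the other kind does so too in the comparisons with CC-CJ. Among the alternatives added later, only leaving out the first Sox9 probe could change M. Fabp7 did not pass in CC-CJ versus AA-CJ, and no other of the 8 genes did (0 called in place of 1), with an offset of 10 (adjusted p of Fabp7 0.13), Feature Extraction's log ratio (0.146), a trended robust prior (0.105), the rule of 2 SD in the methods, or either AA-CJ array left out. In CC-CJ versus CC, 0 genes passed in place of 1 with Feature Extraction's log ratio (Gpr37l1 0.107 in limma), the trended robust prior (0.12), or either CC array left out. Leaving out 1 array gave 0 to 1 of the 8 genes in both comparisons. Of 46 calls on the list genes chosen for naming, 14 were lost with an offset of 10, 26 with Feature Extraction's log ratio, 21 with the trended robust prior, 17 with the replicate block and 4 to 14 with 1 array left out.

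The counts over all genes moved too. The 662 genes of CC-CJ versus AA-CJ (415 higher, 247 lower) became 294 with an offset of 10 (237 higher, 57 lower), 1047 with local regression on intensity and location, 77 with Feature Extraction's log ratio (69 higher, 8 lower), 1123 from its own 2 arrays alone, 66 with the trended robust prior and 122 to 1121 with 1 array left out, the lowest without AA-CJ replicate 1. The 504 of CC-CJ versus CC became 274 with Feature Extraction's log ratio, 290 with probes above background in all channels, 333 with the trended robust prior and 204 to 688 with 1 array left out, the lowest without CC replicate 2. The split of 21 higher and 483 lower became 157 and 552 in the authors' processed values. The 568 of CC versus AA-CJ (551 higher, 17 lower) became 250 with Feature Extraction's log ratio, 348 with probes above background in all channels, 1222 from Cy5 levels (1019 higher, 203 lower) and 352 to 653 with 1 array left out, the lowest again without CC replicate 2.

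Median centring shifted the median of all genes to -0.485 and -0.59 and called 13234 genes (709 higher, 12525 lower) and 14330 genes, with 6 of the 8 genes lower in each of the 2 comparisons. It reversed Fabp7 to -1.35, Serpina3n to -0.72, Cp to -0.40, Apoe to -0.99, Sparcl1 to -0.74, Chrdl1 to -0.77, Aqp4 to -0.069 and S100a4 to -0.81 in CC-CJ versus AA-CJ, and Gpr37l1 to -0.23 in CC-CJ versus CC. Values above 0 that had not passed were called below 0: Vim at -1.56, Nes at -0.86, Gpr37l1 at -0.60 and Ina at -0.41 in CC-CJ versus AA-CJ, and Gfap at -1.03, S100b at -0.26, Tm4sf1 at -0.91, Serpina3n at -1.0, Cp at -0.70, Lcn2 at -0.84, Apoe at -1.50, Sparcl1 at -1.06, Chrdl1 at -0.93, S100a13 at -0.79, S100a4 at -0.98 and Aqp4 at -0.52 in CC-CJ versus CC. The cause of these changes was not tested.

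Replicate numbers were not shown to pair the arrays, since deviations of same-numbered arrays correlated at -0.112 across genes. With the replicate number as a block, 170 genes were called in CC-CJ versus AA-CJ, 306 in CC-CJ versus CC and 294 in CC versus AA-CJ, and 0 of the 8 genes in place of 1 in the first and in the second (adjusted p of 0.109 for Fabp7 and 0.0913 for Gpr37l1). The crossed pairing, added after seeing the data, called 1492, 849 and 828.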
